A study of Homo sapiens with 24 samples.

Results

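The nuclear genes for the subunits of the mitochondrial respiratory chain and of ATP synthase were taken as protein-coding genes whose symbol begins with NDUF, UQCR, COX4 to COX8 or ATP5, or is SDHA, SDHB, SDHC or SDHD. Of 58676 annotated genes, 98 met this rule, and 87 of these were among the 13136 genes that reached 1 CPM (a counts-per-million value over the gene reads of a library) in at least 2 libraries. The 98 members comprised 7 core subunits, 30 accessory subunits and 8 NDUFAF assembly factors of complex I, 4 subunits of complex II, 9 of complex III, 19 of complex IV, 19 of ATP synthase and 2 readthrough genes. The 11 members below the count filter were COX4I2, COX6A2, COX6B2, COX7A1, COX7B2, COX8C, NDUFA4L2, ATP5MGL, NDUFA7 and the readthrough genes ATP5MF-PTCD1 and NDUFC2-KCTD14.

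The study measured mRNA lifetime in cultured HepG2 cells, a line derived from a human liver tumour, after transient transfection with siRNA against one of the RNA-binding proteins IGF2BP1, IGF2BP2 or IGF2BP3 (siIGF2BP1, siIGF2BP2, siIGF2BP3) or with a negative control siRNA (siControl). Actinomycin D, which stops transcription, was added 0, 3 or 6 h ahead of harvest. Each of the 4 conditions had 2 replicates at each of the 3 times, giving 24 libraries of polyadenylated RNA. The study calls its replicates independent, but the labels do not say whether they came from separate transfections, so p-values measure the spread between these samples. All groups share 1 cell line, a knockdown is partial, and all 3 knockdowns were compared with the same siControl libraries.

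The complexes of the inner mitochondrial membrane pass electrons from NADH and succinate to oxygen. Complex I (NDUF) oxidises NADH, complex II (SDH) oxidises succinate, complex III (UQCR) passes electrons from ubiquinol to cytochrome c, and complex IV (COX) reduces oxygen. ATP synthase (ATP5) uses the proton gradient built by complexes I, III and IV to make ATP. Most subunits are encoded in the nucleus and imported, while a small set is encoded by mitochondrial DNA, so the complexes are built from products of both genomes. Hepatocytes are rich in mitochondria, and IGF2BPs are cytoplasmic proteins known to bind mRNAs and affect their stability.

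The libraries held between 31843248 and 74252042 gene reads, of which the members took 0.748 to 1.06%, or 287149 to 632905 reads. Each siRNA lowered its target. At 0 h, IGF2BP1 was at 693 and 709 CPM in siControl and at 145 and 148 CPM in siIGF2BP1. IGF2BP2 was at 188 and 197 CPM against 50.8 and 49.7 CPM in siIGF2BP2, and IGF2BP3 at 113 and 111 CPM against 40.3 and 39.2 CPM in siIGF2BP3. All 10 liver markers examined were expressed, and none of 5 fibroblast or 3 endothelial markers had a median of 1 CPM. Of the leukocyte markers LYZ was expressed and PTPRC and CD3E were not, and of 5 muscle markers ACTA1 was expressed. Reads of 19 members, 15 of them tested, are uncertain because at least 10% of their sequence overlaps another gene on the same strand or is found in a pseudogene. They include NDUFV2, NDUFA13, NDUFA7, NDUFB8, NDUFA11 and ATP5MF.

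Short sequence words that the rule did not use were counted, each found in a minority of the members. In 78 members with a RefSeq promoter (250 bases before to 50 after the start, GRCh38.p14, both strands searched), the word AAGATGGC, the core of the recognition sequence of YY1, stood in 11, or 14.1%, against 5.81% of 9314 promoters of tested protein-coding genes. The word was on the gene strand in 10 of the 11, and in 9 of them its ATG was the start codon. The palindromic recognition word of NRF1, a regulator of respiratory genes, stood in 5 promoters, or 6.41% against 2.45%, and the ETS word CCGGAAG in 21, or 26.9% against 20.6%. CCAAT stood in 35.9% against 37.1% and TATAAA in 8.97% against 5.22%. The 78 include members below the count filter. In the 72 tested members the shares were 13.9% for AAGATGGC, 6.94% for the NRF1 word and 29.2% for CCGGAAG. They were 34.7% for CCAAT and 6.94% for TATAAA. The stretches below are shown because they place the same word at the start of genes of complexes I, II and III and, in ATP5PF, upstream of the start codon. Capitals mark the word, and each stretch is given 5′ to 3′ on the strand of the gene.

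SDHB, chr1:17054004-17054033, minus strand: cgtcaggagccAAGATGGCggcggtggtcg
UQCRC1, chr3:48609605-48609634, minus strand: actgcagctggAAGATGGCggcgtccgtgg
NDUFS4, chr5:53560649-53560678, plus strand: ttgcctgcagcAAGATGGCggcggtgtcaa
NDUFS7, chr19:1383913-1383942, plus strand: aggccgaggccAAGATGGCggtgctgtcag
NDUFA6, chr22:42090729-42090758, minus strand: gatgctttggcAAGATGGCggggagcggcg
ATP5PF, chr21:25735093-25735122, minus strand: taggcgaagaaAAGATGGCggaggctgtgc

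At the other end, the last 300 bases of the transcript, which include coding sequence where the 3′ UTR is shorter, held ATTTA in 40.7% of 86 members and 46.5% of 11381 protein-coding genes tested, and the longer word TATTTAT in 4.65% against 10.5%. The Pumilio word TGTANATA stood in 6 members, or 6.98% against 10.2%. It was found in transcripts that fell fast after actinomycin D, NDUFAF4 and NDUFAF7, in NDUFS3, which fell less, and in ATP5MC3, whose log2 change of -0.12 over 6 h did not pass the test. In NDUFAF7 the word stood further than 300 bases from the transcript end. These 4 stretches (GRCh38, gene strand, word in capitals) are shown because the same word accompanied both fast and slow loss.

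NDUFAF4, chr6:96889462-96889491, minus strand: cattttaaaacTGTAAATAagtcaaaactt
NDUFAF7, chr2:37248466-37248495, plus strand: acagtccatgtTGTATATAatacaaccaac
NDUFS3, chr11:47584526-47584555, plus strand: ttgagtgtccgTGTAAATAaattcctactt
ATP5MC3, chr2:175176428-175176457, minus strand: ttgcacaacatTGTAAATAtaataaatgtc

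Member transcripts were short. The median transcript length was 804 bases in 87 members and 3348 bases in 11385 protein-coding genes tested, and the median 3′ UTR was 194 against 1321 bases. ATP5MF spans chr7:99448475-99466186 and NDUFB2 spans chr7:140690777-140722790 (GRCh38), the members with the largest changes past the test against siControl at 0 h, described below. NDUFAF4 spans chr6:96889315-96897891, with a 3′ UTR of 1789 bases.

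Subunits of 1 complex were not present at like levels in siControl cells at 0 h. Levels were compared per length, as TPM (a transcripts-per-million value, reads divided by transcript length), over members without shared sequence. Complex IV ranged from 49.7 to 1122 TPM with a median of 282, ATP synthase from 98.0 to 889 with a median of 330, and complex III from 8.6 to 361 with a median of 212. The 8.6 TPM belonged to UQCRHL, a near-identical copy of UQCRH, which the definition of shared sequence used here did not count. The next lowest member of complex III was UQCRB at 33.8 TPM. Complex II ranged from 86.7 to 222 TPM, the complex I core from 53.2 to 185 and its accessory subunits from 15.9 to 1064. The 7 NDUFAF assembly factors without shared sequence, which build complex I but do not stay in it, had the lowest median of these groups, at 24.7 TPM. Among them NDUFAF8 stood at 271 ± 13.2 TPM (SD, n = 2) and NDUFAF5 at 15.0 ± 0.113 TPM.

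The members at the top of this scale were COX7C at 1128 and 1116 TPM, COX4I1 at 1124 and 1116 TPM and NDUFS5 at 1061 and 1066 TPM. COX7C and COX4I1 are small structural subunits of complex IV, and their levels did not differ beyond the spread of the replicates. ATP5IF1, the inhibitor of ATP hydrolysis by ATP synthase, followed at 889 ± 3.24 TPM, and NDUFAB1, the mitochondrial acyl carrier protein, at 777 ± 25.5 TPM. ATP5F1B, the catalytic beta subunit, stood at 563 ± 4.79 TPM. The order depends on the length used, because with all exons of a gene merged NDUFS5 came first at 1576 TPM, followed by ATP5F1B at 726 TPM and COX7C at 588 TPM, and COX4I1 stood at 291 TPM.

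**Figure D1:**
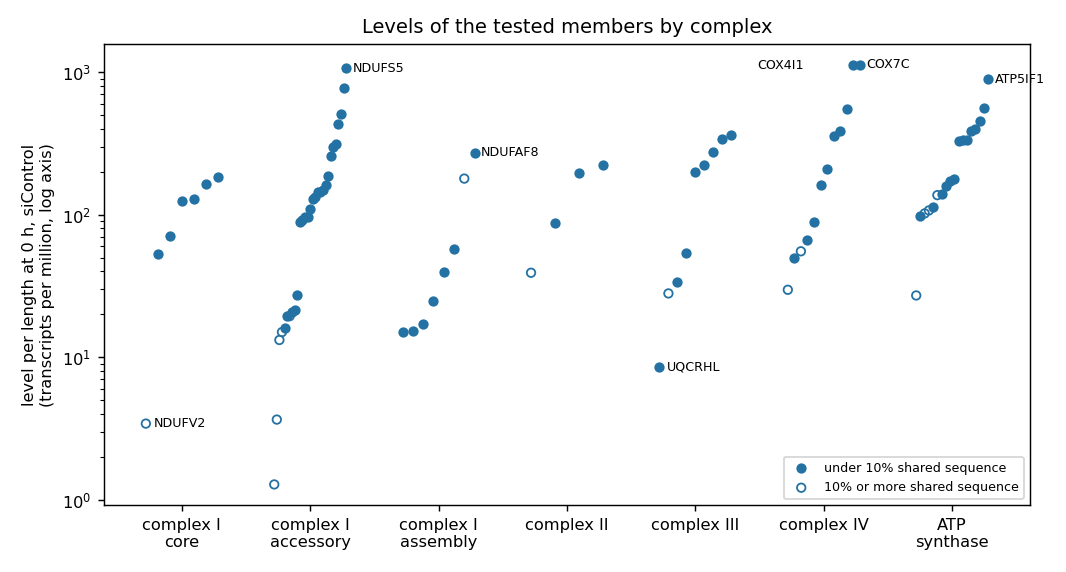
Level per length (TPM, log axis) of each tested member in siControl cells at 0 h by complex, each point the mean of 2 replicates, filled for members without shared sequence and open for those with it. COX7C, COX4I1 and NDUFS5 lie above 1000 TPM, while 5 of the 7 filled assembly factors lie below 50. UQCRHL is filled although it is a near-identical copy of UQCRH.

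Where a subunit has tissue isoforms, HepG2 cells held the ubiquitous one. COX4I1 ranged from 349 to 570 CPM over the 24 libraries, while COX4I2, the lung isoform, had 6 reads in 2 libraries. COX6A1 ranged from 11.5 to 21.2 CPM and COX7A2 from 31.4 to 52.2 CPM. Their heart and skeletal muscle counterparts had 0 reads for COX6A2 and 3 reads in 3 libraries for COX7A1. COX7B2 and COX8C, both known from testis, had 0 reads in all 24 libraries, which allows up to 3 reads per library or 0.0404 to 0.0942 CPM (counting error only), and COX6B2 had 1 read in all. Their partners were at 40.2 to 74.2 CPM for COX7B, 5.91 to 9.44 CPM for COX8A and 70.4 to 117 CPM for COX6B1. NDUFA4L2, a hypoxia-induced relative of NDUFA4, had 239 reads and did not exceed 0.47 CPM, against 54.2 to 91.0 CPM for NDUFA4. The 3 genes for subunit c of ATP synthase, which give the same mature protein, were all expressed, at 32.7 to 54.2 CPM (ATP5MC1), 41.5 to 62.2 CPM (ATP5MC2) and 103 to 152 CPM (ATP5MC3). UQCRHL, an intronless copy of UQCRH, took 1671 reads against 118864, and reads of such near-identical copies may be split wrongly between them.

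After transcription was stopped, most member transcripts stayed near their starting level while most other transcripts fell. Reads were scaled to the ERCC spike-in RNAs, which had been added in proportion to total RNA. The scale is therefore relative to total RNA and cannot show a change in cell number or in total RNA per cell. All member reads together stood at 97.0 and 90.8% of the 0 h mean after 6 h in siControl, against 70.7 and 65.9% for all gene reads. The 0 h replicates themselves stood at 107 and 93.5% of their mean for the members and at 107 and 93.3% for all gene reads, so the scale of a library moved all genes together. The member share of gene reads rose accordingly, from 0.766 and 0.768% at 0 h to 1.05 and 1.06% at 6 h.

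By a slope on time in each condition (edgeR quasi-likelihood test, Benjamini-Hochberg over all genes tested), 80.6% of all genes passed the test in siControl, 80.3% falling and 0.251% rising, with a median log2 change of -0.88 over 6 h. Of the 87 members, 22 fell and none rose, with a median of -0.11 and a range from -2.37 to 0.17. Without replicate 1 of siControl at 0 h, fewer members fell, and the share of all genes in that fit is not given here. Under TMM scaling, which sets the typical transcript to no change, 75.0% of all genes passed, 36.3% rising and 38.7% falling with a median of -0.02, and 78 members rose and 3 fell with a median of 0.76. The median of the members lay 0.78 above that of all genes on both scales, and 82 of 87 members lay above the all-gene median on both. Changes are therefore given on the ERCC scale and are to be read against -0.88.

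Groups of members are given side by side, and differences between them were not tested. Of the 8 NDUFAF assembly factors 5 fell, with a median log2 change of -0.60, and of the 79 other members 17 fell, with a median of -0.09. Among subunits, 4 of 7 complex I core, 6 of 29 accessory, 2 of 4 complex II, 3 of 9 complex III, 2 of 18 ATP synthase and 0 of 12 complex IV members fell. Medians were -0.26, -0.12, -0.21, -0.03, -0.09 and 0.02 in the same order.

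**Figure D2:**
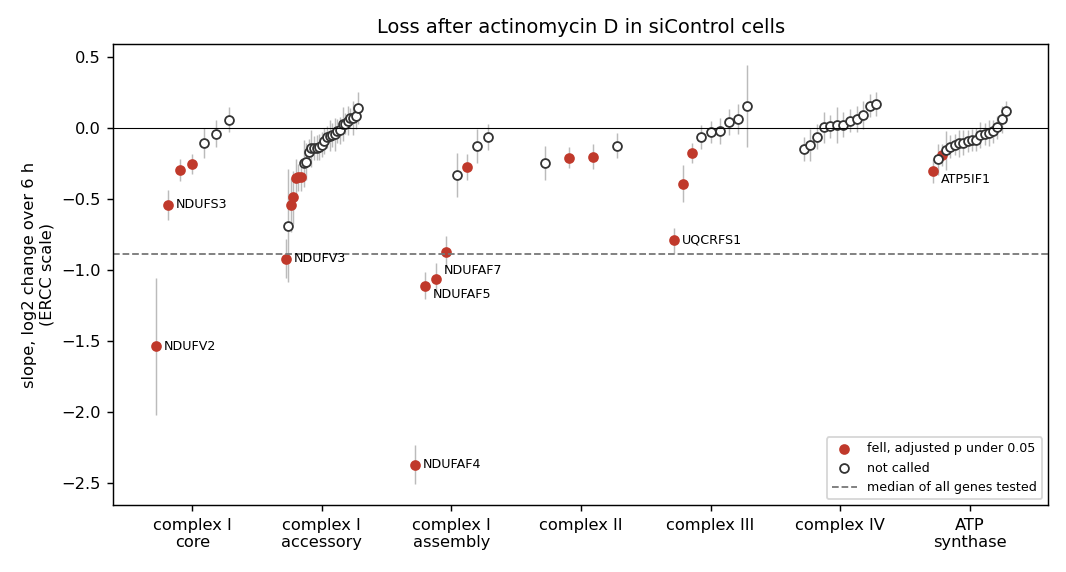
Log2 change over 6 h of actinomycin D in siControl (ERCC scale) for the 87 tested members by group, with filled points for members that passed the test, open points for the others, bars for the SE and a dashed line at the all-gene median of -0.88. NDUFAF4 at -2.37 lies lowest, and no complex IV member passed.

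NDUFAF4, which helps to assemble the ubiquinone-binding arm of complex I, fell most. It stood at 49.1 and 48.2% of the 0 h mean after 3 h and at 18.5 and 20% after 6 h, a log2 change of -2.37 (SE 0.138, adjusted p = 9.8e-13). Both replicates at 6 h lay below both at 3 h, and these below both at 0 h. NDUFAF5, which hydroxylates the core subunit NDUFS7, was at 46.3 and 46.2% after 6 h (log2 change -1.11, SE 0.0952). NDUFAF7, a methyltransferase needed for complex I assembly, was at 48.5 and 47.2% (-1.06, SE 0.11), and NDUFAF6 at 52.8 and 56.3% (-0.87, SE 0.11). NDUFAF3, the partner of NDUFAF4, changed by -0.13 and NDUFAF8 by -0.06, and neither passed the test, so the assembly factors were not alike.

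Among the subunits themselves, NDUFV3, an accessory subunit of the NADH-binding arm, fell to 51.9 and 53.8% after 6 h (log2 change -0.92, SE 0.139, adjusted p = 2.9e-06). UQCRFS1, the Rieske iron-sulphur protein of complex III, fell to 60.2 and 55.3% (-0.79, SE 0.0881, adjusted p = 3.52e-08). These were the subunits without shared sequence that lost most. NDUFV2, whose reads are uncertain, changed by -1.54 with a wide error (SE 0.48). The core subunit NDUFS3 stood at 72.3 and 64.9% (-0.54, SE 0.104), and NDUFS1, the largest subunit of complex I, at 82.8 and 80.0% (-0.30, SE 0.0753). ATP5IF1 stood at 86.1 and 75.9% (-0.30, SE 0.0833), while SDHA, the flavoprotein of complex II, and UQCRC2, a core protein of complex III, changed by -0.21 and -0.18, and all of these passed the test. Other members that fell included NDUFA11 (-0.54), NDUFA9 (-0.49), UQCR11 (-0.39), NDUFC2 (-0.35), NDUFA8 (-0.35), NDUFS4 (-0.35), NDUFAF2 (-0.27), SDHC (-0.20) and ATP5F1C (-0.19). NDUFA11, NDUFA9, UQCR11, NDUFC2 and NDUFAF2 are among the members with shared sequence.

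The remaining representatives of each complex did not pass. COX4I1 was at 109 and 97.6% after 6 h, COX6C at 115 and 110%, and COX5B at 114 and 109%, with log2 changes of 0.05, 0.17 and 0.16. Of these, COX6C passed a direct comparison of 3 h with 0 h, at 119 and 115% after 3 h (log2 change 0.23, adjusted p = 0.0103), the only member that rose in that interval. In the same interval 9 members fell, among them NDUFV2, whose reads are uncertain, at -1.55, NDUFAF4 at -1.04, NDUFV3 at -0.60, NDUFAF7 at -0.60 and NDUFAF5 at -0.60, while 62.2% of all genes passed, 0.906% rising and 61.3% falling. ATP5F1B changed by -0.05, ATP5F1A by -0.09, ATP5PO by -0.13, SDHB by -0.12, NDUFB8 by -0.25, NDUFV1 by 0.06, UQCRC1 by 0.04, COX5A by -0.06 and COX7C by 0.01. The least negative slopes among members of at least 5 CPM also included NDUFA3 at 0.14, ATP5ME at 0.11, COX7A2 at 0.09 and NDUFS5 at 0.08. From 3 to 6 h, 18 members fell and none rose, while 65.0% of all genes passed, 0.152% rising and 64.9% falling.

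Other genes of the pathway lost more. Respiratory assembly factors outside the rule fell in 35 of 41 cases (median log2 change -0.50), CYC1 with CYCS and the coenzyme Q synthesis genes in 9 of 11 (-0.49) and regulators of mitochondrial biogenesis in 14 of 14 (-1.42). Mitochondrial ribosomal protein genes, which like the members encode imported parts of large complexes, fell in 67 of 77 cases with a median of -0.70. Cytosolic ribosomal protein genes were close to the members, with 14 of 91 falling, 1 rising and a median of 0.02.

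The mitochondrially encoded partner subunits moved furthest from the members. All 13 fell, with a median log2 change of -1.82. MT-CO3, a subunit of complex IV, stood at 22 and 21.7% after 6 h, MT-CO1 at 53.6 and 50.4%, and MT-CYB of complex III at 7.64 and 7.05%. Mitochondrially encoded mRNAs together stood at 36.3% of their 0 h level, against 93.9% for all member reads and 103% for those of complex IV. Mitochondrial mRNAs are made by a polymerase of their own and carry short poly(A) tails, and the part of poly(A) selection in this difference was not tested.

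**Figure D3:**
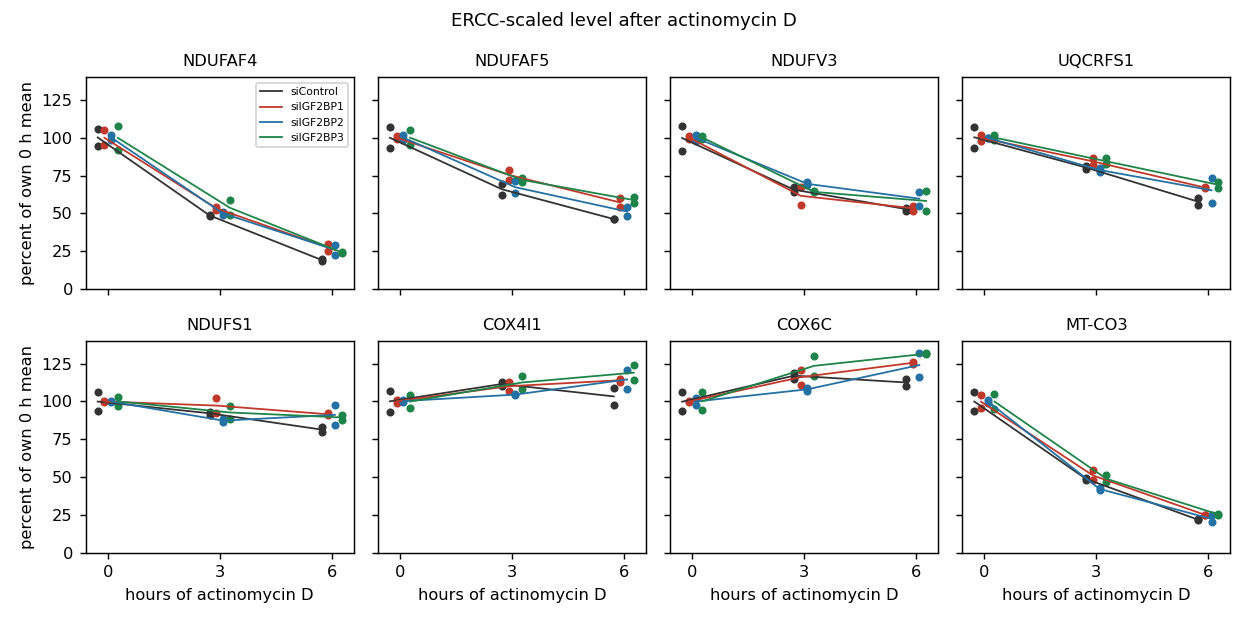
Percent of the 0 h mean in the same condition (ERCC scale) against hours of actinomycin D for 8 genes, with points for single libraries and lines for the means of 2 replicates in siControl and the 3 knockdowns. NDUFAF4 falls to 18.5 and 20% in siControl and MT-CO3 to 22 and 21.7%, while COX4I1 and COX6C stay near or above 100%.

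Expressed as a lifetime t1/2 by the equation of the study (ln2 over the decay rate, here averaged over 3 and 6 h), NDUFAF4 had 2.69 h in siControl, NDUFAF5 5.19 h, NDUFAF7 5.27 h, NDUFV3 5.62 h, NDUFAF6 7.42 h and UQCRFS1 8.40 h. For 70 of 87 members, or 80.5%, t1/2 was over 24 h or could not be computed because the level had not fallen. The same held for 21.4% of all genes. Where t1/2 could be computed, its median was 44.3 h over 48 members and 5.88 h over 11910 genes. A time course of 6 h cannot resolve lifetimes over 24 h, so members in this range were not ranked.

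Across members, longer transcripts tended to lose more. The correlation of transcript length with the log2 change over 6 h was -0.43 (Spearman) and -0.23 (Pearson) over 87 members, against -0.28 and -0.13 over 11385 protein-coding genes. For the length of the 3′ UTR the Spearman values were -0.21 and -0.24. These are descriptions across genes of the same libraries, which are not independent replicates.

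The time course addressed whether the IGF2BPs alter mRNA stability. No member passed the test of a difference in slope between a knockdown and siControl. The background was low as well, with 0.0152% of all genes called in siIGF2BP1 (2 genes), 0.0% in siIGF2BP2 and 0.0228% in siIGF2BP3 (3 genes) by edgeR. At an unadjusted p under 0.05 the members numbered 4, 7 and 12 of 87, against 10.9, 6.82 and 16.1% of all genes, and DESeq2 also called 0 members in each knockdown, against 0.0305, 0.0457 and 0.206% of all genes. Without replicate 2 of siControl at 0 h, NDUFS3 and SDHA were among members that passed in siIGF2BP3. The share of all genes that passed in that fit is not given here. The siControl replicates at 0 h stood at 107 and 93.3% of their mean for all gene reads. Leaving 1 out therefore moves the slopes of all genes. Median differences in log2 change were 0.17, 0.16 and 0.18 for the members and 0.19, 0.17 and 0.22 for all genes on the ERCC scale. Under TMM they were -0.03, -0.04 and -0.05 against -0.01, -0.02 and -0.01. With a median SE of 0.128, 0.127 and 0.128, differences near these errors were not detectable in single members.

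Members with the lowest p in each direction did not pass. NDUFAF4 fell by 1.87 on the log2 scale in siIGF2BP1 and by 2.37 in siControl, a difference of 0.50 (SE 0.192, adjusted p = 0.423). Its level after 6 h was 25.1 and 29.7% in siIGF2BP1, 22.6 and 29.3% in siIGF2BP2 and 24.6 and 24% in siIGF2BP3, against 18.5 and 20% in siControl. The 6 h knockdown libraries thus all lay above both siControl libraries, without a difference past the test. This was not particular to NDUFAF4. All gene reads stood at 77.3, 75.9 and 78.3% after 6 h in the 3 knockdowns, against 68.3% in siControl. Of 13136 genes tested, 11242, 11338 and 11608 had a positive difference in slope in siIGF2BP1, siIGF2BP2 and siIGF2BP3. The only member with a negative difference in siIGF2BP1 was COX8A at -0.0039. In siIGF2BP2, ATP5PF differed by 0.30, ATP5ME by 0.25, SDHD by -0.04 and NDUFV2 by -0.11. In siIGF2BP3, NDUFAF5 differed by 0.34 (SE 0.134, adjusted p = 0.286), NDUFS3 by 0.37 (SE 0.146, adjusted p = 0.287), NDUFA9 by -0.13 and NDUFB4 by -0.02. The t1/2 of NDUFAF4 was 3.26, 3.04 and 3.13 h in the 3 knockdowns, and that of NDUFAF5 7.42, 5.69 and 7.02 h.

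Slopes were also taken within each knockdown. In siIGF2BP1, siIGF2BP2 and siIGF2BP3, 10, 12 and 9 members fell and 15, 14 and 16 rose on the ERCC scale, with medians of 0.07, 0.05 and 0.09. Of all genes 71.7, 73.8 and 70.1% passed, with 2.69, 2.44 and 2.91% rising, 69.1, 71.3 and 67.2% falling and medians of -0.69, -0.71 and -0.65. The 7 members that fell in all 3 knockdowns were NDUFAF4, NDUFAF5, NDUFAF6, NDUFAF7, NDUFV2, NDUFV3 and UQCRFS1, each of which also fell in siControl. The 8 that rose in all 3 were ATP5ME, COX4I1, COX5B, COX6A1, COX6C, NDUFS5, NDUFV1 and UQCRC1. Of the 12 complex IV members 6, 5 and 6 rose and none fell. Their summed reads stood at 114, 114 and 116% of 0 h after 6 h, against 103% in siControl, and those of the assembly factors at 79.5, 77.6 and 79.1%, against 70.1%. All gene reads stood at 77.3, 75.9 and 78.3% against 68.3%, so they were higher than in siControl as well. COX6C, for example, reached 126 and 125% after 6 h in siIGF2BP1, 116 and 132% in siIGF2BP2 and 132 and 131% in siIGF2BP3. That these members rose in knockdowns and did not pass in siControl does not show a difference between conditions, since the test of the slopes themselves called no member.

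At 0 h, the abundance of a few subunits differed from siControl, given here as CPM and tested after TMM scaling. In siIGF2BP1, 5 members were higher and 6 lower, or 11 of 87, against 15.9% of all genes, 9.43% higher and 6.5% lower. Without replicate 1 or 2 of siControl or replicate 2 of siIGF2BP1 at 0 h, fewer members passed. The shares of all genes in those fits are not given here. ATP5MF, subunit f of the membrane part of ATP synthase, changed most. It was at 20 and 19 CPM in siControl and at 12.5 and 13.8 CPM in siIGF2BP1, which was 67.8% of the control level (log2 change -0.56, SE 0.0802, adjusted p = 1.66e-06). It stayed lower at 3 h, at 12.9 and 14.4 against 22.9 and 22.9 CPM, and at 6 h, at 15.5 and 14.7 against 24.8 and 24.2 CPM. The groups did not overlap at any time. In siIGF2BP2 and siIGF2BP3 ATP5MF was at 17.6, 19.7, 19.8 and 18.8 CPM at 0 h and did not pass the test. Of its sequence 37.2% overlaps 2 other genes on the same strand, and 0.0% was found in pseudogenes. PTCD1, a neighbour joined to it in the readthrough gene, had a log2 change averaged over the 3 times of -0.0002 (SE 0.127) in siIGF2BP1, against -0.67 (SE 0.0468, adjusted p = 1.13e-14) for ATP5MF.

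NDUFB2 and NDUFB10, accessory subunits of the membrane arm of complex I, were higher in siIGF2BP1. NDUFB2 was at 28.0 and 29.5 CPM in siControl and at 35.3 and 36.3 CPM in siIGF2BP1 (log2 change 0.33, SE 0.0582, adjusted p = 5.49e-05). NDUFB10 was at 144 and 151 against 167 and 166 CPM (0.19, SE 0.035, adjusted p = 9.35e-05). In both genes the groups did not overlap. UQCR10, a small subunit of complex III, was at 88.2 and 87.6 against 96.6 and 102 CPM (0.19), ATP5F1D, the delta subunit of the central stalk, at 143 and 142 against 153 and 161 CPM (0.16), and SDHB, the iron-sulphur subunit of complex II, changed by 0.14. Lower members besides ATP5MF were ATP5IF1 (192 and 193 against 176 and 166 CPM, -0.15), UQCRC2 (274 and 285 against 253 and 252 CPM, -0.13), COX7B (53.6 and 51.0 against 46.6 and 40.2 CPM, -0.24), ATP5MC1 (-0.19) and NDUFC2 (14.2 and 13.9 against 11 and 12.1 CPM, -0.27).

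In siIGF2BP2, 4 of 87 passed, 1 higher and 3 lower, against 12.1% of all genes, 6.65% higher and 5.47% lower. Fewer passed without replicate 1 of siIGF2BP2 at 0 h, a fit whose share of all genes is not given here. Fitting only the groups compared gave 12 of 86 members, 1 higher and 11 lower, against 18.7% of all genes, and 12 of 86 in siIGF2BP1 as well, against 21.7%. NDUFB2 was higher, at 35.8 and 33.5 CPM (log2 change 0.28, adjusted p = 0.000775). ATP5IF1 was lower at 168 and 171 CPM (-0.18, adjusted p = 0.00158), UQCRC2 at 252 and 255 CPM (-0.14, adjusted p = 0.00168) and COX7B at 45.6 and 43.6 CPM (-0.22, adjusted p = 0.021). In siIGF2BP3, 2 of 87 passed, against 9.39% of all genes, 4.93% higher and 4.47% lower. They were COX7B at 44.8 and 44.8 CPM (-0.22, adjusted p = 0.0307) and NDUFA8, which was higher at 35.9 and 35.4 against 31.8 and 31.7 CPM (0.17, adjusted p = 0.0477). Neither passed without replicate 1 or 2 of siControl or replicate 1 of siIGF2BP3 at 0 h, and 1 passed without replicate 2 of siIGF2BP3. COX7B, a small subunit of complex IV encoded on the X chromosome, was the member lower in all 3 knockdowns, which share the siControl libraries. On the ERCC scale 2, 1 and 0 members passed, against 4.94, 5.57 and 3.59% of all genes, namely ATP5MF and NDUFB2 in siIGF2BP1 and NDUFB2 in siIGF2BP2.

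**Figure D4:**
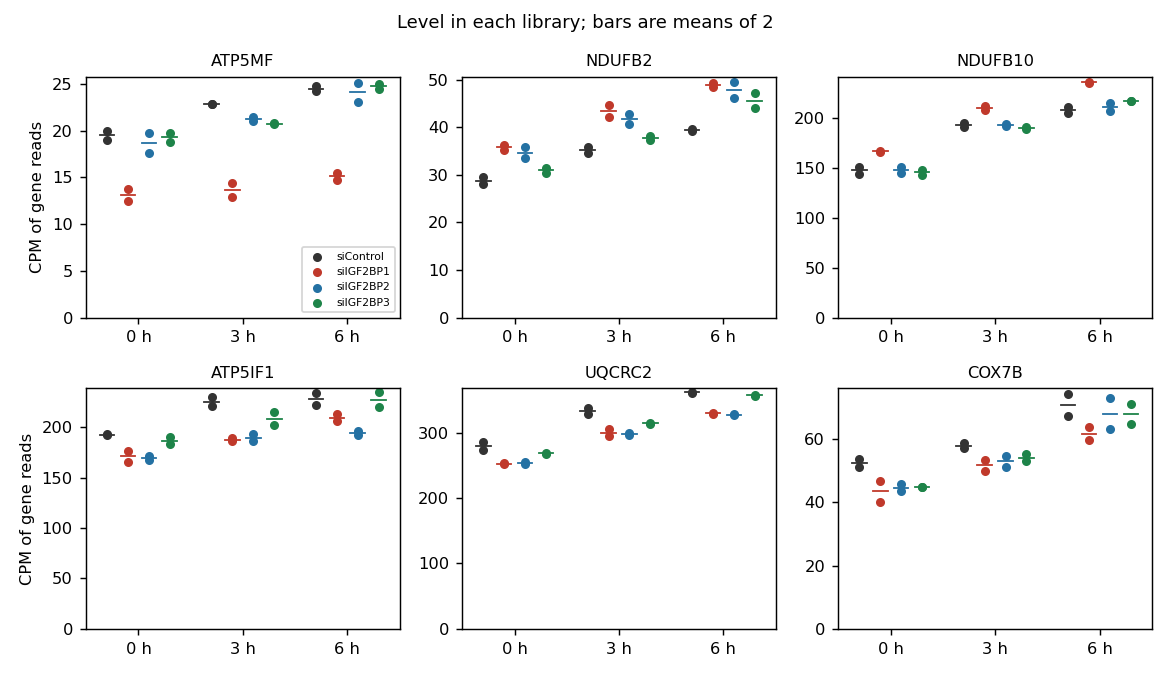
CPM against hours of actinomycin D for 6 members, with points for single libraries and lines for the means of 2 replicates in siControl and the 3 knockdowns. ATP5MF in siIGF2BP1 lies at 12.5 to 15.5 CPM, and every library of the other conditions lies at 17.6 CPM or above.

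Comparing knockdowns directly, without the siControl libraries, tested which of these changes differed between them. ATP5MF was lower in siIGF2BP1 than in siIGF2BP2 (log2 difference -0.50, SE 0.0811, adjusted p = 1.11e-05) and than in siIGF2BP3 (-0.55, SE 0.0819, adjusted p = 4.48e-06). It was the only member that also passed on the ERCC scale, against 12.1 and 6.66% of all genes in these comparisons and 2.91% between siIGF2BP2 and siIGF2BP3, where no member passed on that scale. Between siIGF2BP1 and siIGF2BP2, 5 members passed, against 18.7% of all genes, with ATP5F1D at 0.27, NDUFB10 at 0.18, NDUFAB1 at 0.15 and ATP5F1B at 0.10 higher in siIGF2BP1. Between siIGF2BP1 and siIGF2BP3, 10 members passed, against 14.3%, and fewer without replicate 2 of siIGF2BP1 or of siIGF2BP3 at 0 h. Those higher in siIGF2BP1 by the largest differences were NDUFA3 at 0.42, NDUFB2 at 0.22, NDUFS7 at 0.22, ATP5F1D at 0.21 and NDUFB10 at 0.20. Between siIGF2BP2 and siIGF2BP3, 3 members passed, against 9.19%. Leaving out replicate 1 or 2 of siIGF2BP2, or replicate 2 of siIGF2BP3, left fewer. The shares of all genes in the fits with 1 library left out are not given here. The differences between siIGF2BP2 and siIGF2BP3 were NDUFAF3 at 0.25, higher in siIGF2BP2, and ATP5IF1 at -0.13 and NDUFAB1 at -0.11, lower there.

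With the 6 libraries of each condition averaged over the 3 times, smaller shifts passed the test. Each transfected plate had been re-seeded for the 3 times, so libraries of 1 condition at different times may share a transfection, while the fit takes all libraries as independent, and its p-values may then be too small. Replicate differences of 1 condition at different times correlated at -0.032 to 0.243 (median 0.03 over 12 pairs of groups). In siIGF2BP1, 13 members were higher and 18 lower under TMM, against 39.7% of all genes called (21.2% higher, 18.5% lower). On the ERCC scale 13 were higher and 7 lower, against 31.1% (23.4% higher, 7.7% lower). In siIGF2BP2 the split was 2 higher and 25 lower under TMM, against 33.8% of all genes (17.1% higher, 16.7% lower). On the ERCC scale it was 39 higher and 1 lower, against 48.0% (44.2% higher, 3.86% lower). In siIGF2BP3 it was 5 higher and 34 lower under TMM, against 32.3% (16.2% higher, 16% lower), and 43 higher and 0 lower on the ERCC scale, against 54.8% (52.9% higher, 1.96% lower). The direction of these calls thus depended on the scale, which moved the all-gene median from 0.01 to 0.15 in siIGF2BP2 and from 0.00 to 0.18 in siIGF2BP3. Relative to the all-gene median, the members lay at -0.02, -0.04 and -0.07 in the 3 knockdowns on both scales. In siIGF2BP3, 12 of 87 members lay above that median on both scales, in siIGF2BP2 17 and 18, and in siIGF2BP1 35 and 35.

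By time under TMM, the member median in siIGF2BP3 was -0.03 at 0 h, -0.09 at 3 h and -0.07 at 6 h, with 58, 75 and 71 of 87 members below 0, against 48.9, 49.9 and 50.1% of all genes. In siIGF2BP2 it was -0.00, -0.04 and -0.05, and in siIGF2BP1 0.02, -0.02 and -0.01. On the ERCC scale the 6 h medians were 0.15 in siIGF2BP1, 0.22 in siIGF2BP2 and 0.24 in siIGF2BP3, below the all-gene medians of 0.17, 0.27 and 0.30.

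**Figure D5:**
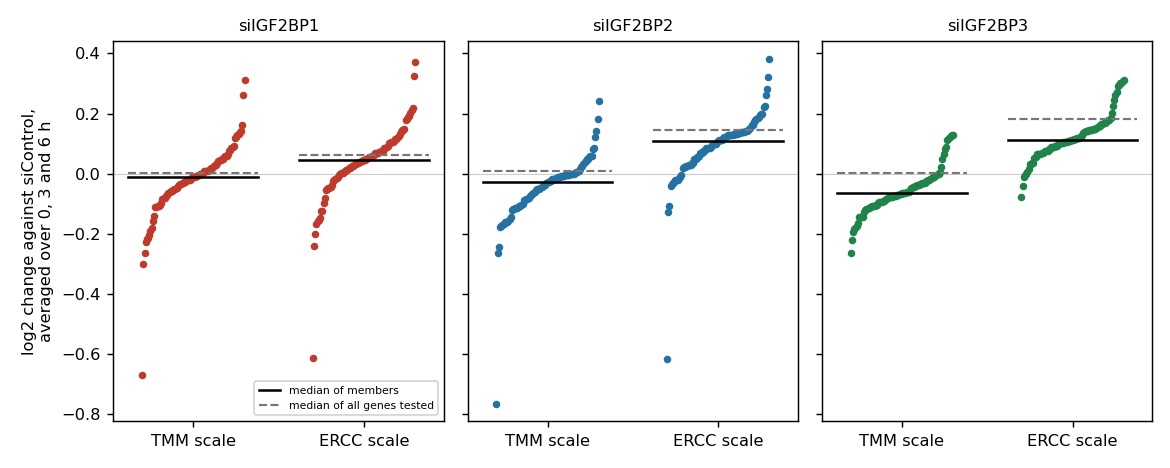
Log2 change averaged over 0, 3 and 6 h against siControl for the 87 tested members in each knockdown under TMM and ERCC scaling, ordered by value, with solid lines at the medians of the members and dashed lines at those of all genes. The member median is -0.01, -0.03 and -0.07 under TMM and 0.05, 0.11 and 0.11 under ERCC.

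Under TMM, NDUFB2 was higher in all 3 knockdowns, at log2 changes of 0.31, 0.24 and 0.12, and at 0.37, 0.38 and 0.30 on the ERCC scale. The 8 members lower in all 3 were ATP5IF1, ATP5MC1, ATP5MG, COX7B, NDUFB1, SDHC, UQCRC2 and UQCRH, and the comparisons share their controls. On the ERCC scale COX7B, ATP5MG, ATP5IF1, UQCRC2, SDHC and UQCRH lay above 0 in siIGF2BP3, and UQCRH also in siIGF2BP2. In siIGF2BP1 the largest falls after ATP5MF were ATP5MG at -0.30, NDUFC2 at -0.26, UQCR11 at -0.23, ATP5MC1 at -0.22 and NDUFB1 at -0.21. The largest rises after NDUFB2 were NDUFA3 at 0.26, NDUFB10 at 0.16, UQCR10 at 0.14, NDUFA8 at 0.13 and NDUFAF5 at 0.13. ATP5MG and ATP5MC1 encode subunits g and c of the membrane part of ATP synthase, and both share sequence with other genes.

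In siIGF2BP2, ATP5MG (-0.26), ATP5IF1 (-0.24), NDUFB1 (-0.17), UQCRC2 (-0.17), SDHC (-0.17) and NDUFAB1 (-0.16) fell under TMM, and NDUFAF4 (0.18) was the other member that rose. NDUFA13 fell by 0.77 there, but its reads are few and shared. In siIGF2BP3, ATP5MC1 (-0.22), NDUFB1 (-0.19), NDUFAF3 (-0.19), UQCR11 (-0.18) and UQCRH (-0.18) fell and NDUFAF5 (0.13), NDUFA8 (0.12), NDUFA5 (0.11) and NDUFC1 (0.09) rose. By complex, 0 of 12 complex IV members rose under TMM in any knockdown and 3, 4 and 6 fell, while on the ERCC scale 0, 3 and 5 rose and 1, 0 and 0 fell. Of 18 ATP synthase members 4, 10 and 9 fell under TMM, and on the ERCC scale 4, 0 and 0 fell and 1, 6 and 10 rose. Of other lists under TMM, cytosolic ribosomal protein genes fell in 59, 22 and 52 of 91 cases, and mitochondrial ribosomal protein genes rose in 32, 14 and 16 of 77. On the ERCC scale the cytosolic genes fell in 4, 1 and 0 cases, and the mitochondrial ones rose in 36, 41 and 65.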

How the data were processed

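The authors trimmed single-end reads with Trimmomatic 0.39 and aligned them to hg38 with HISAT2 2.1.0 (names and versions per the submitters' processing notes). They counted reads per GENCODE v29 gene with HTSeq, and the deposited values are raw counts per gene and library. Summary entries for reads assigned to no gene, 13.6 to 17.1% of each library's reads, and 45 duplicate entries of the Y pseudoautosomal region were left out. ERCC reads, 50889 to 119088 per library, were kept apart. RNA had been selected for poly(A) and libraries were stranded. METTL1 knockdown libraries were not analysed here.

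Genes with at least 1 CPM in 2 libraries were fitted together over all 24 libraries with edgeR 4.0.16 (R 4.3.3) quasi-likelihood tests, two-sided, with Benjamini-Hochberg adjustment over the 13136 genes tested and a threshold of 0.05. Abundance used 12 group means and TMM scaling. Decay used an intercept and a slope on time per condition, scaled by summed ERCC reads, and its slope was multiplied to 6 h. Alternatives were ERCC, TMM or library-size scaling, DESeq2 1.42.0, other count filters, a replicate block, only the compared groups, and leaving out each library. Levels with merged exons, members without shared sequence and times shown singly were added after seeing the data. The fits were tested on simulated counts.

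The rule for genes named with values took members that passed (at most 10 in each direction, 5 between knockdowns), the 6 most and 6 least negative slopes, the 2 lowest p in each direction where none passed, isoform families, and 16 representatives of the complexes. The members and lists were chosen with earlier results of these data known. Gene positions and lengths are from GENCODE v44, a later release on the same build, and promoters from RefSeq. COQ8 had no entry by that symbol. Some items the rule would name are not reported here.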

Additional observations from a re-analysis of the deposited data

Results flagged for a closer look

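In these results, the effects of 2 knockdowns on the same member at 0 h differed when the difference itself was tested (edgeR, TMM scaling, adjusted over all genes). ATP5MF was lower in siIGF2BP1 than in siIGF2BP2 by a log2 difference of -0.50 (adjusted p = 1.11e-05) and than in siIGF2BP3 by -0.55 (adjusted p = 4.48e-06). ATP5F1D was higher in siIGF2BP1 by 0.27 (adjusted p = 1.3e-05) and 0.21 (adjusted p = 0.000627). NDUFB10 was higher in siIGF2BP1 by 0.18 (adjusted p = 0.000184) and 0.20 (adjusted p = 5.57e-05). NDUFB2 was higher in siIGF2BP1 than in siIGF2BP3 by 0.22 (adjusted p = 0.00787), and ATP5IF1 was lower in siIGF2BP2 than in siIGF2BP3 by -0.13 (adjusted p = 0.0277). Of these members only ATP5MF also passed on the ERCC scale. There the edgeR adjusted p was 0.226 and 0.533 for ATP5F1D and 0.641 and 0.567 for NDUFB10. It was 0.552 for NDUFB2 and 0.658 for ATP5IF1. ATP5IF1 did not pass without replicate 1 of siIGF2BP2 or replicate 2 of siIGF2BP3 at 0 h. The shares of all genes that passed in these comparisons are given above.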

How the results depend on the processing

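Single values kept their direction and their side of the threshold in 3653 comparisons of a named member with an alternative, lost it in 181, gained it in 47 and turned direction in 49, all of the last under another scaling. Scaling by ERCC in place of TMM left 2, 1 and 0 members at 0 h for siIGF2BP1, siIGF2BP2 and siIGF2BP3 (11, 4 and 2 under TMM), 20 averaged over time in siIGF2BP1 (31 under TMM), and 1, 1 and 0 between siIGF2BP1 and siIGF2BP2, siIGF2BP1 and siIGF2BP3, and siIGF2BP2 and siIGF2BP3 (5, 10 and 3). DESeq2 gave 7 and 4 members at 0 h in siIGF2BP2 and siIGF2BP3, or 8.05 and 4.6%, against 12.6 and 10.7% of all genes. It gave 10 and 5 members for siIGF2BP2 against siIGF2BP1 and siIGF2BP3, for which the share of all genes is not given here. Fitting only the compared groups gave 12 in siIGF2BP2, against 18.7% of all genes, and no count filter gave 1 in siIGF2BP3, against 3.12%. For the slope in siControl, 81 members passed under TMM, 78 of them rising, and 78 by library size, 72 of them rising. On the ERCC scale 22 passed, all falling. The share of all genes that passed by library size is not given here. A t1/2 under 24 h was found for 17, 12, 18 and 11 members in siControl and the 3 knockdowns, and for 3, 4, 3 and 4 under TMM. The highest level per length, COX7C at 1122 TPM, was 588 with merged exons.

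Under ERCC scaling the averaged log2 changes turned positive in siIGF2BP2 for NDUFS1 (0.025), UQCRC1 (0.13), UQCRFS1 (0.12), COX4I1 (0.13), COX5A (0.13), COX5B (0.11), COX7C (0.0284), ATP5F1A (0.11), ATP5F1B (0.0303) and ATP5PO (0.0566). In siIGF2BP3 this held for UQCRH (0.005), NDUFA1 (0.0151), NDUFB11 (0.0323), NDUFV3 (0.032), ATP5MG (0.0339), COX7B (0.0355), NDUFS1 (0.0693), NDUFV1 (0.10), SDHA (0.15), UQCRC1 (0.16), UQCRC2 (0.11), UQCRFS1 (0.17), COX4I1 (0.11), COX5A (0.11), COX5B (0.11), COX7C (0.15), ATP5F1B (0.12) and ATP5IF1 (0.11). Between siIGF2BP1 and siIGF2BP2 at 0 h ATP5F1B became -0.0161. The change over 6 h in siControl became positive under TMM for UQCRFS1 (0.0766), NDUFS1 (0.57), NDUFB8 (0.62), SDHA (0.66), SDHB (0.75), UQCRC2 (0.69), COX5A (0.81), ATP5F1A (0.78), ATP5F1B (0.82), ATP5PO (0.73) and ATP5IF1 (0.56). By library size it did so for NDUFS1 (0.25), SDHA (0.34), SDHB (0.43), UQCRC2 (0.37), COX5A (0.49), ATP5F1A (0.46), ATP5F1B (0.50), ATP5PO (0.41) and ATP5IF1 (0.24). These follow from the shift of the all-gene median between scales.

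Leaving out 1 library at a time gave 5 to 9, 2 to 5 and 0 to 1 members at 0 h in siIGF2BP1, siIGF2BP2 and siIGF2BP3, and 27 to 33, 21 to 28 and 29 to 42 averaged over time. It gave 4 to 7, 4 to 9 and 0 to 2 between knockdowns in the order above, 14 to 33 for the loss in siControl, and 0 to 0, 0 to 0 and 0 to 3 for differences in decay. For t1/2 under 24 h with 1 replicate the numbers were 13 to 27, 10 to 16, 15 to 20 and 11 to 13, and the highest level was 1116 to 1128 TPM. The shares of all genes in the fits with 1 library left out are not given here. These ranges are therefore not read as results about the members. The numbers for siControl count members that passed in either direction.

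Replicate differences of different groups correlated at -0.074 to 0.288 (median 0.008). These values cannot show whether libraries with the same replicate number share a transfection. A replicate block gave 4 members in siIGF2BP3 at 0 h in place of 2, against 10.0% of all genes. It changed no other count by over 1.5 times and no call of a named member. With 2 replicates per group, a spike-in share of reads that varied between replicates, and a course of 6 h, slow losses and small differences were not resolved.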
